A study of Mus musculus with 9 samples.

Results

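Ccr7, Ccl22, Fscn1, Siglech, Ccr9, Flt3 and Batf3 are 7 genes by which dendritic cells are commonly recognised. They were followed through RNA sequencing of mouse endothelial progenitor cells (EPCs) of male (M-EPC), female (F-EPC) and ovariectomized female (OVX-EPC) origin, with 3 libraries per group and 9 in all. The 7 genes were picked by name from the 2810 genes that appear in any of 3 tables, each of which compares a pair of groups, and the picking was done with the values of these comparisons known. Their levels are therefore given as a description and no p-value is attached to them. The table that sets M-EPCs beside F-EPCs held 6 of the 7 (all but Ccr9), that for M-EPCs and OVX-EPCs also held 6 (all but Batf3), and that for both female groups held 4 (Ccr7, Ccl22, Siglech and Ccr9). Reads in all 9 libraries were at hand for 6 of the 7, and the level of Batf3 in OVX-EPCs was not used here.

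All mice were C57BL/6J and 8 weeks old, and the OVX group had its ovaries removed at about 35 days of age. In every group the bone marrow mononuclear layer was depleted of lineage-marked cells, Sca-1+/CD31+ cells were taken by magnetic sorting, and these were grown in EGM-2 endothelial medium before RNA was taken. The labels give neither the number of animals behind a library nor whether libraries came from separate cultures. The study's methods speak of biological replicates for RNA sequencing and, for its data in general, of at least 3 independent biological experiments. They do not say what separates these libraries. How much of the spread between the 3 libraries of a group is technical is therefore unknown. A level below is a normalized count, a gene's reads after division by its library's size factor, with the size factors of the 3 tables joined through the M-EPC libraries so that all 9 libraries stand on 1 scale. In bulk RNA, fewer cells of a kind and less RNA per cell cannot be told apart.

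Dendritic cells take up antigen, carry it to lymph nodes and present it to T cells. When a conventional dendritic cell matures it begins to express CCR7, the receptor that steers it along CCL19 and CCL21 into lymphatics, CCL22, a chemokine that draws CCR4-bearing T cells, and fascin, the actin-bundling protein that shapes its dendrites. Plasmacytoid dendritic cells are a separate kind that releases type I interferon on viral infection. They carry Siglec-H and, in their resting state, the gut-homing chemokine receptor CCR9. FLT3 is the cytokine receptor on which dendritic cell development in the bone marrow depends, and BATF3 is a transcription factor needed for conventional type 1 dendritic cells.

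The 7 genes lie apart from each other on GRCm38, the build of the deposited tables, and GENCODE gives each of them as protein-coding. Ccr7 lies at chr11:99144196-99155077 on the minus strand, Ccl22 at chr8:94745590-94751699 on the plus strand and Fscn1 at chr5:142960343-142973185 on the plus strand. Siglech lies at chr7:55768178-55778925 on the plus strand and Ccr9 at chr9:123678439-123784330 on the plus strand. Flt3 lies at chr5:147330741-147400489 on the minus strand and Batf3 at chr1:191097847-191108945 on the plus strand. Exons of Ccr9 share 1932 bases, 18.8% of its exonic length, with AC165425.1 on the opposite strand, 269 bases with the lincRNA Gm17200 on its own strand and 22 bases with Slc6a20a on the opposite strand. The library kit was directional, and whether the counting used strand was not given in the sources used here, so reads of Ccr9 and of these neighbours may not be fully separated.

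A RefSeq promoter entry (GRCm38.p6) was found for 6 of the 7 genes. The stretches of these entries that precede any GENCODE exon in the window are shown for a pair of mature migratory genes, Ccl22 (chr8:94745434-94745589) and Fscn1 (chr5:142960105-142960342), and for both plasmacytoid genes, Siglech (chr7:55767934-55768177) and Ccr9 (chr9:123766961-123767168), because these pairs stood in opposite order between F-EPCs and OVX-EPCs with the authors' size factors. The RefSeq start of Ccr9 lies inside the GENCODE gene, which begins far upstream of it, so that its window is within an annotated intron, whereas the other 3 windows end at the base before the gene. All 4 are on the plus strand and run 5′ to 3′ up to the base before the exon, and capitals mark E-boxes (CANNTG), the motif bound by basic helix-loop-helix factors, the family of the plasmacytoid regulator TCF4.
Ccl22: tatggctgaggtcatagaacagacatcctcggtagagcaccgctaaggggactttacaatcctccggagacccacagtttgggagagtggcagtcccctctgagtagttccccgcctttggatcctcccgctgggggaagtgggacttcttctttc
Fscn1: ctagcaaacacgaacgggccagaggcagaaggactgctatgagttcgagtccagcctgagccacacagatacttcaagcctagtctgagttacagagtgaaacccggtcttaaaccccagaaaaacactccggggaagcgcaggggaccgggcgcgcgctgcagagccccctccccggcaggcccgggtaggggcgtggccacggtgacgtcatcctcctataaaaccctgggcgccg
Siglech: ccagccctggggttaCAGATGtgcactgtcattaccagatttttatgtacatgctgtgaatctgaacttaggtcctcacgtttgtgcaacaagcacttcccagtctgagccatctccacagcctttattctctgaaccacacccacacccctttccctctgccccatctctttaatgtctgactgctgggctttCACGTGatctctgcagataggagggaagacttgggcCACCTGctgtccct
Ccr9: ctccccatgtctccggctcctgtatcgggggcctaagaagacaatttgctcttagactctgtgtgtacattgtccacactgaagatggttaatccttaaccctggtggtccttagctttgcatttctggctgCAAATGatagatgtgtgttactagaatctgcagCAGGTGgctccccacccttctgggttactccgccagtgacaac
Siglech held 3 E-boxes in 244 bases and Ccr9 held 2 in 208 bases, whereas Ccl22 held 0 in 156 bases and Fscn1 0 in 238 bases. Flt3, whose window is not shown, held 1 in 250 bases. An E-box is common. Among 27018 RefSeq promoters cut to the same length, 65.4% held at least 1 in 244 bases, 60.2% in 208 bases, 50.6% in 156 bases and 64.6% in 238 bases. The kappa B consensus bound by NF-kappa B, the PU.1 core GAGGAA and the interferon-stimulated response element were searched on both strands and had 0 matches in these windows. At 244 bases they are found in 3.62%, 22.5% and 2.99% of promoters, respectively. The windows are short and the matches describe letters only.

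The mature migratory genes shared an order, highest in F-EPCs, lower in OVX-EPCs and lowest in M-EPCs. Ccr7 had levels of 0, 0 and 1.20 in M-EPC libraries 1, 2 and 3, which is a single read in the group. It stood at 102, 78.4 and 94.8 in F-EPCs and at 12.2, 30.4 and 25.5 in OVX-EPCs. No library of a group reached the range of another group, which also holds for 98.3% of the genes listed for M-EPCs and F-EPCs, 99.2% for M-EPCs and OVX-EPCs and 98.9% for both female groups. OVX-EPC library 1 was the lowest of its group. Ccl22 was at 3.81, 2.69 and 2.39 in M-EPCs, 82.8, 81.3 and 91.0 in F-EPCs, and 19.8, 35.1 and 21.7 in OVX-EPCs. Its F-EPC libraries were close together, all well above the highest OVX-EPC library. Fscn1, which many other cells with actin-rich protrusions also express, was present in every group, with 37.1, 18.9 and 23.9 in M-EPCs, 114, 121 and 144 in F-EPCs, and 93.3, 85.8 and 88.7 in OVX-EPCs. Again the groups did not overlap, though F-EPCs and OVX-EPCs stood much nearer to each other for Fscn1 than for Ccr7 or Ccl22.

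The plasmacytoid genes had another order, with OVX-EPCs highest on this scale. Siglech was at 0, 0.898 and 2.39 in M-EPCs, 3 reads in the group. It was at 32.3, 15.5 and 18.0 in F-EPCs and at 74.4, 84.0 and 82.1 in OVX-EPCs. The 3 groups did not overlap, and F-EPC library 1 was well above the other two of its group. Ccr9 was at 54.2, 55.7 and 72.9 in M-EPCs, 57.6, 67.8 and 65.4 in F-EPCs, and 122, 142 and 139.7 in OVX-EPCs. Its M-EPC and F-EPC libraries overlapped and every OVX-EPC library was above them. Reads counted for Ccr9, unlike those for Siglech, were thus plainly present in M-EPCs, though some may belong to the genes that overlap it.

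Of the lineage genes, Flt3 was nearly absent from M-EPCs and Batf3 was higher there than in F-EPCs, the only other group with a value. Flt3 levels were 3.81, 0 and 0 in M-EPCs, 25.2, 18.4 and 19.9 in F-EPCs, and 15.1, 7.38 and 23.6 in OVX-EPCs. The M-EPC libraries lay below all others, and F-EPCs and OVX-EPCs overlapped. Batf3 levels were 197, 161 and 158 in M-EPCs and 58.6, 94.9 and 88.1 in F-EPCs, with no overlap and with F-EPC library 1 the lowest of its group.

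**Figure D1:**
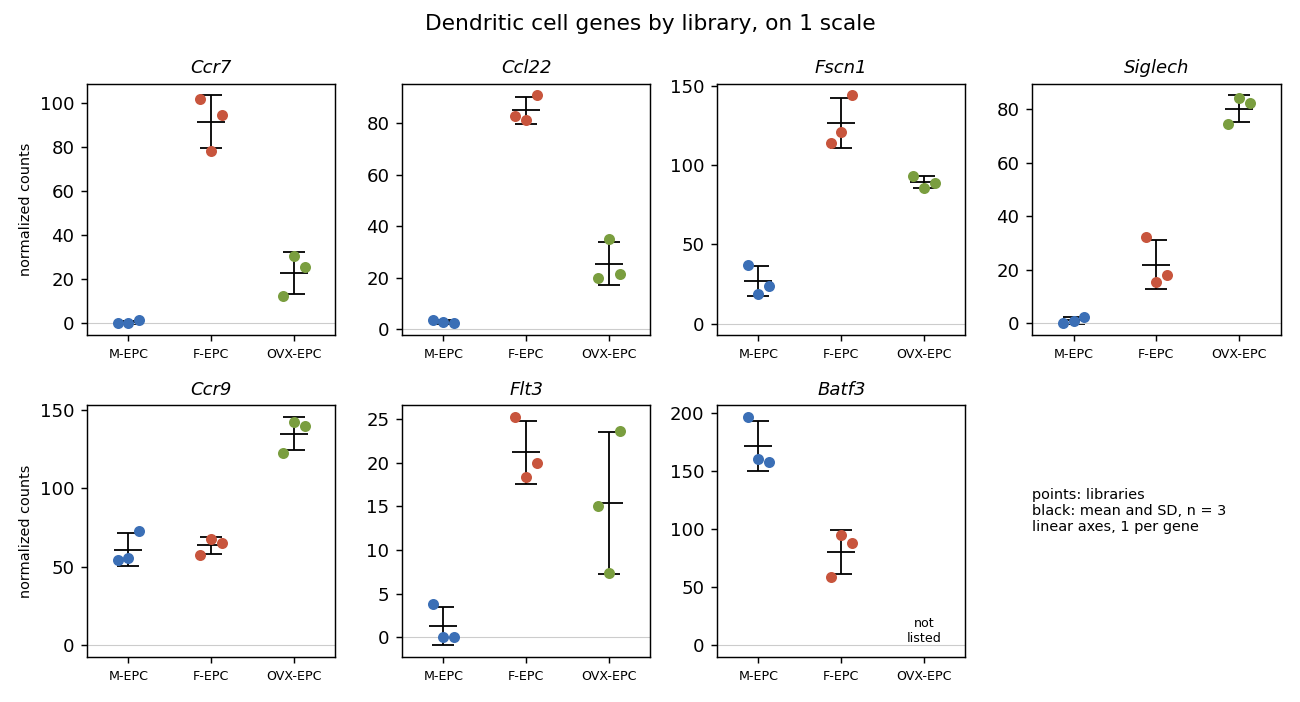
Level (normalized counts on 1 scale, linear axis of its own for each gene) of the 7 dendritic cell genes in each of the 3 libraries per EPC group, with black bars for the mean and SD (n = 3). Ccr7, Ccl22 and Fscn1 are highest in F-EPCs, Siglech and Ccr9 in OVX-EPCs, Flt3 is low in M-EPCs, and Batf3, with no value for OVX-EPCs, is above its F-EPC levels in M-EPCs.

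Divided by exonic length, the levels can be set against each other within a group. In F-EPCs the mean level per kilobase was 50.4 for Batf3, 46.4 for Ccr7, 42.0 for Fscn1 and 36.6 for Ccl22, and it was 6.49 for Siglech, 6.20 for Ccr9 and 3.43 for Flt3. In OVX-EPCs the order was Fscn1 with 29.6, Siglech with 23.7, Ccr9 with 13.1, Ccr7 with 11.5, Ccl22 with 11.0 and Flt3 with 2.49 per kilobase. M-EPCs had 108 for Batf3, 8.84 for Fscn1 and 5.94 for Ccr9, and 1.27 or less for the other 4. Siglech and Ccr9 were therefore several times lower per kilobase than the mature migratory genes in F-EPCs, while in OVX-EPCs Siglech stood above Ccr7 and Ccl22, and Ccr9 differed from them by less than their spread between libraries. The annotated exons of Ccr9 add up to 10.3 kilobases, which lowers its value if few of them are used.

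The comparison of male with female cells asked how far EPCs of the sexes differ. M-EPCs had less Ccr7 (mean level 0.399 ± 0.690 against 91.7 ± 12.1, SD, n = 3), Ccl22 (2.96 ± 0.745 against 85.0 ± 5.20), Siglech (1.10 ± 1.21 against 21.9 ± 9.07), Flt3 (1.27 ± 2.20 against 21.2 ± 3.60) and Fscn1 (26.6 ± 9.43 against 126 ± 15.7), and more Batf3 (172 ± 21.8 against 80.5 ± 19.3). All 6 listed genes met the criteria of the limma fit, 5 lower and 1 higher in M-EPCs. Since the table was limited to genes that had already met the authors' own criteria, 97.6% of its 2093 genes were called, 49.3% as lower and 48.4% as higher in M-EPCs, and nothing is read from the count. The log2 differences on the scale of log2(normalized count + 1), M-EPC minus F-EPC, were -6.15 (SE 0.35) for Ccr7, -4.45 (0.16) for Ccl22, -3.70 (0.67) for Flt3, -3.55 (0.52) for Siglech, -2.25 (0.27) for Fscn1 and 1.11 (0.22) for Batf3. The median over all listed genes was -0.99. As ratios of reads with exact 95% intervals for counting error only, Ccl22 was 28.4-fold higher in F-EPCs (14.7 to 62.8), Flt3 15.8-fold (5.90 to 59.9) and Fscn1 4.75-fold (3.73 to 6.12). With only 1 and 3 reads in M-EPCs, the ratios of Ccr7 (275, 48.9 to 10896) and Siglech (21.8, 7.14 to 108) are known within wide bounds. Without F-EPC library 1 the log2 difference of Batf3 was 0.90, under the 1 required for a call, and with RLE or DESeq2 it was 0.74, also not called. Without M-EPC library 1 the log2 difference of Flt3 was -4.46. With a pseudocount of 0.1 in place of 1, Ccr7 was at -8.60, Flt3 at -5.96, Siglech at -5.06 and Ccl22 at -4.82, so the sizes for genes near 0 reads in M-EPCs, and the place of Ccl22 in their order, rest on the pseudocount. Ccr9 was not in this table. On the joined scale its difference was -0.07 (SE 0.15), from 61.0 ± 10.4 in M-EPCs and 63.6 ± 5.35 in F-EPCs.

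Male cells were next set against cells of females without ovaries. The same 3 mature migratory genes and Flt3 were lower in M-EPCs, and here both plasmacytoid genes were lower as well. Siglech led, with a log2 difference (M-EPC minus OVX-EPC) of -5.46 (SE 0.45), followed by Ccr7 with -4.12 (0.47), Flt3 with -3.16 (0.75), Ccl22 with -2.72 (0.27), Fscn1 with -1.76 (0.26) and Ccr9 with -1.14 (0.17). The median of all listed genes was -1.26, so Ccr9 stood close to it. Counted in reads, Siglech was 80.2-fold higher in OVX-EPCs (27.1 to 391), Ccr7 68.3-fold (11.9 to 2736), Flt3 11.5-fold (4.20 to 43.8), Ccl22 8.53-fold (4.28 to 19.3), Fscn1 3.35-fold (2.60 to 4.34) and Ccr9 2.25-fold (1.88 to 2.69). All 6 were called as lower in M-EPCs, in a table where 98.8% of 1317 genes were called and 58% were called as lower. Ccr9 lost its call with TMM (-0.95), RLE (-0.53) and DESeq2 (-0.53). Fscn1 kept its call but came near the limit with RLE and DESeq2 (-1.12 with each). Leaving out M-EPC library 1 moved Flt3 to -3.93, and a pseudocount of 0.1 gave -7.01 for Siglech, -6.52 for Ccr7 and -5.38 for Flt3. The M-EPC libraries are shared with the comparison before, so the low values in M-EPCs are the same measurements in both.

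Between F-EPCs and OVX-EPCs, which differ in the ovaries, the mature migratory and plasmacytoid genes stood in opposite directions with the authors' size factors. Ccr7 was 4.01-fold higher in F-EPCs (3.09 to 5.26, counting error only; log2 difference 2.05, SE 0.35) and Ccl22 3.32-fold (2.58 to 4.31; 1.74, SE 0.24). Siglech was 3.69-fold higher in OVX-EPCs (2.81 to 4.91; -1.90, SE 0.29) and Ccr9 2.12-fold (1.79 to 2.52; -1.08, SE 0.13). The 4 listed genes were all called, 2 higher and 2 lower in F-EPCs, where 98.2% of 811 genes were called, 30.8% as higher and 67.3% as lower in F-EPCs. All of these values depend on the scaling. The listed genes alone cannot settle it, since TMM, RLE and DESeq2 assume that most genes are unchanged and these genes were selected for a difference. When size factors were recomputed from the listed genes alone, the median of all genes moved from -1.31 to -0.18 with each of edgeR's TMM, edgeR's RLE and DESeq2. Siglech was then at -0.74 to -0.75 and no longer called, Ccr9 was at 0.040 to 0.047 in the other direction, and the calls became 2 higher and 0 lower. Relative to that median, Siglech stood at -0.58 with the authors' size factors and -0.57 with TMM, Ccr9 at 0.24 and 0.22, Ccr7 at 3.36 and 3.31, and Ccl22 at 3.05 and 3.03. Ccr7 and Ccl22 kept their direction, with larger log2 differences of 3.13 to 3.14 for Ccr7 and 2.85 to 2.86 for Ccl22. Fscn1 and Flt3 were outside this table. On the joined scale Fscn1 was higher in F-EPCs by 0.49 (SE 0.11) with no overlap of libraries (126 ± 15.7 against 89.3 ± 3.77), and Flt3 by 0.56 (SE 0.47) with overlap (21.2 ± 3.60 against 15.3 ± 8.11).

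**Figure D2:**
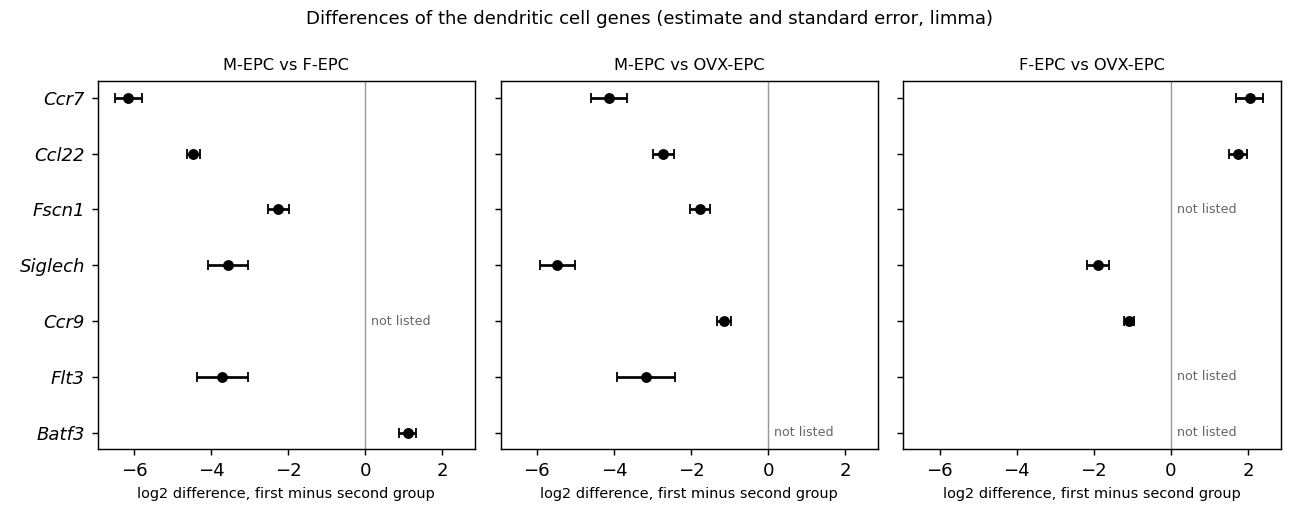
Log2 difference of normalized counts (limma estimate with its standard error, 3 libraries per group) for the 7 dendritic cell genes in each of the 3 comparisons. Values left of 0 are lower in the group named before the other; every listed gene but Batf3 is to the left in the comparisons of M-EPCs, and the panel of both female groups places Ccr7 and Ccl22 right of 0 and Siglech and Ccr9 left of it with the authors' size factors (Ccr9 turns with recomputed ones).

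Other genes of dendritic cells were read from 6 marker lists with 106 genes, 99 beside the 7. A table held 41 of the 99. Every listed gene was called, as were nearly all genes of each table, so only directions are described. With F-EPCs as the reference, 14 of the other genes rose and 16 fell in M-EPCs (median log2 difference -1.54, all listed genes -0.99), where 48.4% of all listed genes were called higher and 49.3% lower. With OVX-EPCs as the reference, 11 rose and 18 fell in M-EPCs (-1.64, all genes -1.26), while 5 rose and 10 fell in F-EPCs (-1.28, all genes -1.31). Among all listed genes the shares were 40.8% higher and 58% lower in M-EPCs, and 30.8% higher and 67.3% lower in F-EPCs. The counts lie near these shares and nothing is read from them. With TMM, RLE or DESeq2 the last of these counts became 5 and 2, with RLE or DESeq2 the counts for M-EPCs became 10 and 16 with F-EPCs as the reference and 11 and 14 with OVX-EPCs, and among all listed genes of the 11 lists Ccr9, Naaa and Cd79b turned direction between F-EPCs and OVX-EPCs.

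Of the 13 mature migratory genes in the table with F-EPCs, 6 were higher and 7 lower in M-EPCs, close to the 48.4% higher and 49.3% lower of all listed genes, and without Ccr7, Ccl22 and Fscn1 the counts were 6 and 4. Beside Ccr7, Ccl22 and Fscn1, M-EPCs had less Il12b, the p40 subunit of interleukin 12 (2.53 ± 1.73 against 28.9 ± 3.39), and Slco5a1, an organic anion transporter gene, had 0 reads in every M-EPC library and a level of 13.0 ± 3.16 in F-EPCs, at least 13.0-fold higher when 3 reads over the 3 M-EPC libraries together are taken as the floor. In the other direction Ccl5, a chemokine for T cells and monocytes, stood at 1363 ± 69.1 in M-EPCs and only 88.7 ± 17.7 in F-EPCs, with a log2 difference of 3.95 (SE 0.18). Cd86, a costimulatory ligand, and Cd274, which encodes PD-L1, were looked up after their values had been seen and were 3.20-fold and 4.34-fold higher in M-EPCs. Against OVX-EPCs, 5 of 9 listed genes were higher in M-EPCs (40.8% of all listed genes), Ccl5 among them (2.81, SE 0.12), and without Ccr7, Ccl22 and Fscn1 the counts were 5 higher and 1 lower. F-EPCs had more Il12b than OVX-EPCs (log2 difference 2.44, SE 0.26), the same direction as Ccr7 and Ccl22, and less Tnfrsf9, a costimulatory receptor (-2.00, SE 0.53), and Ccl5 (-1.14, SE 0.18). With TMM, RLE or DESeq2 neither of the latter was called, with Tnfrsf9 at -0.84 to -0.87 and Ccl5 at -0.0019 to -0.0086, while Il12b was at 3.70 to 3.75.

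In the plasmacytoid list, M-EPCs had lower levels of 10 of 10 listed genes than OVX-EPCs (median -3.36), where 58% of all listed genes were lower, and of 7 of 9 than F-EPCs (median -2.86), where 49.3% were. Without Siglech and Ccr9, chosen for their values, the counts were 8 of 8 and 6 of 8. With RLE or DESeq2, Ccr9 and Cox6a2 were no longer called between M-EPCs and OVX-EPCs, Cox6a2 at -0.89 to -0.90. Spib, a transcription factor of plasmacytoid and B cells, was at 3.90 ± 1.68 in M-EPCs, 69.2 ± 13.5 in F-EPCs and 134 ± 3.37 in OVX-EPCs. Ly6d, a surface protein of early B and plasmacytoid cells, was at 1.90 ± 3.30, 21.7 ± 1.79 and 38.4 ± 1.08 in the same order of groups. Both were ordered like Siglech on the joined scale, but neither was listed between F-EPCs and OVX-EPCs, and their step between these groups is smaller than the shift of at least 1.13 (log2) that recomputed size factors brought there. Ly6c2 and Cox6a2 did not, with 7.25 ± 6.16, 153 ± 7.64 and 106 ± 18.0 for Ly6c2 and 16.8 ± 11.2, 114 ± 14.2 and 49.0 ± 8.16 for Cox6a2, both highest in F-EPCs. Pacsin1, an adaptor of endocytosis, was low in M-EPCs and F-EPCs and higher in OVX-EPCs (0.997 ± 0.914, 3.25 ± 3.10 and 29.3 ± 4.31). Irf7, the regulator of type I interferon genes, was listed between F-EPCs and OVX-EPCs only and was higher in F-EPCs (log2 difference 1.89, SE 0.10). F-EPCs had lower levels than OVX-EPCs for 5 of the 7 listed plasmacytoid genes, Siglech and Ccr9 included, in a table with 67.3% of all genes lower in F-EPCs, and with recomputed size factors only Pacsin1 of the 5 was still called lower, as Ccr9 turned direction and Siglech, Atp1b1 and Lag3 lost their calls.

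**Figure D3:**
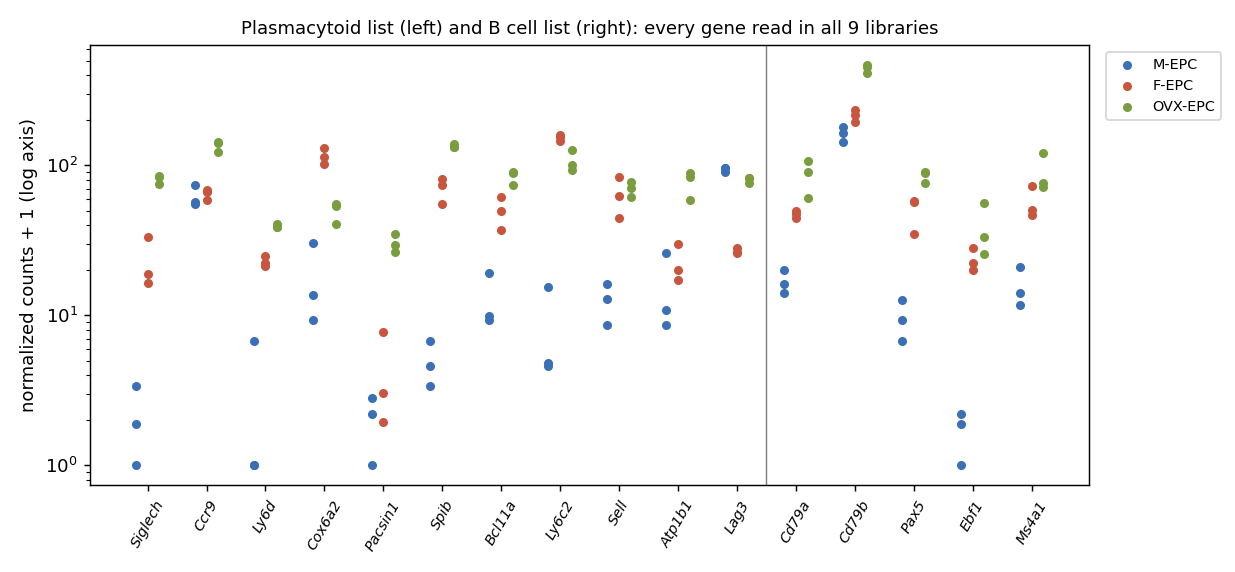
Normalized counts plus 1 (log axis) in each library, coloured by group, for every gene of the plasmacytoid list (left of the line) and of the B cell list (right of it) read in all 9 libraries, 11 and 5 genes. Siglech, Spib, Ly6d and the B cell genes are lowest in M-EPCs and tend to be highest in OVX-EPCs, whereas Cox6a2 and Ly6c2 are highest in F-EPCs and Lag3 in M-EPCs.

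The lists of conventional dendritic cells held genes of both directions. For type 1 cells, M-EPCs had more Batf3 and more Tlr11, a receptor for protozoan profilin (119 ± 12.1 against 6.35 ± 8.61 in F-EPCs), but less Cd24a (log2 difference -3.36, SE 0.25) and Gcsam (-4.29, SE 0.58). The defining genes Xcr1 and Clec9a were not in the tables and were not used here. For type 2 cells, M-EPCs had more of the lectins Clec10a (2.49, SE 0.11) and Mgl2 (2.37, SE 0.13), and 0 reads on the lectin Cd209a, which was at 10.4 ± 3.81 in F-EPCs and 12.2 ± 7.17 in OVX-EPCs. Both of these lectins that were higher in M-EPCs were higher in OVX-EPCs than in F-EPCs as well (-1.50, SE 0.13, for Clec10a and -1.29, SE 0.13, for Mgl2, F-EPC minus OVX-EPC), but neither was called with recomputed size factors (-0.36 to -0.37 and -0.17 to -0.18). In the lineage list 1 gene was higher and 2 were lower in M-EPCs than F-EPC levels, and 1 was higher and 3 were lower than OVX-EPC levels, Flt3 included. Among all listed genes 49.3% and 58% were lower, respectively, so nothing is read from these counts. Without Flt3, chosen for its values, they were 1 higher and 1 lower, and 1 higher and 2 lower. Dpp4, a surface peptidase, was lower in M-EPCs (-2.22, SE 0.68, and -2.33, SE 0.65), as was Itgax, which encodes CD11c and was named after its value had been seen, against OVX-EPCs (-1.21, SE 0.13; not called with RLE or DESeq2, -0.58). Ciita, the master regulator of MHC class II genes, was at 5154 ± 174 in M-EPCs, 155 ± 20.5 in F-EPCs and 1070 ± 108 in OVX-EPCs, an order opposite to that of Ccr7. With a pseudocount of 1 it had the largest difference of this list between M-EPCs and F-EPCs (5.05, SE 0.12). That place may rest on the pseudocount, as Flt3 was at -5.96 there with 0.1. Zbtb46, which marks conventional dendritic cells, was not in the tables. Of the uptake receptors, Ly75, the DEC-205 receptor of dendritic cells, was higher in OVX-EPCs than in M-EPCs (-1.47, SE 0.14) and F-EPCs (-1.28, SE 0.14), where the former was not called with RLE or DESeq2 (-0.84) and the latter not with TMM, RLE or DESeq2 (-0.15 to -0.16). Clec4n was the only uptake receptor listed between M-EPCs and F-EPCs. It was higher in M-EPCs (1.12, SE 0.11), but was not called with RLE or DESeq2 (0.77).

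**Figure D4:**
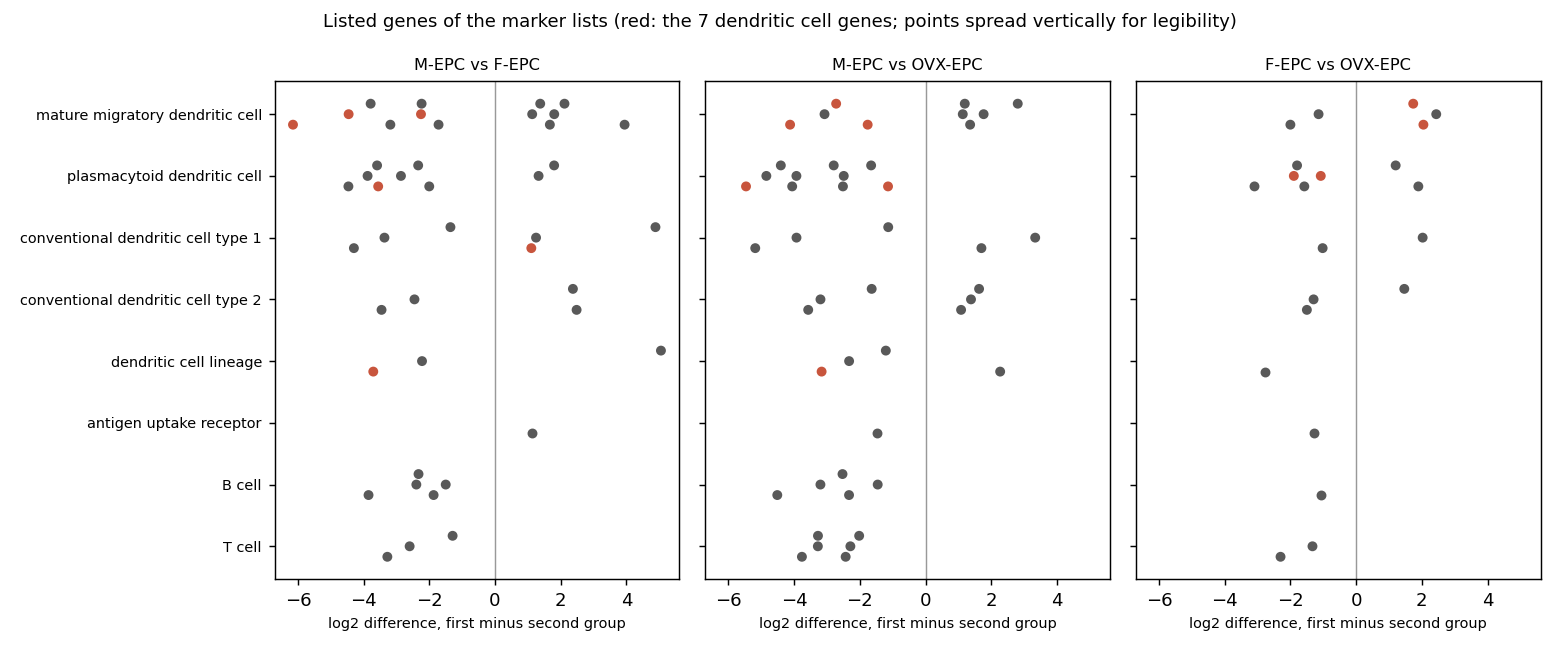
Log2 difference of normalized counts for every listed gene of the 6 dendritic cell lists and the B cell and T cell lists, 1 panel for each comparison (1 point per gene, red for the 7 genes). The mature migratory list lies on both sides of 0, while the plasmacytoid list lies wholly left of 0 for M-EPCs against OVX-EPCs, as the B cell and T cell lists do.

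Markers of other blood cells differed between the groups as well. In tables with 49.3% (F-EPCs) and 58% (OVX-EPCs) of all listed genes lower in M-EPCs, nearly every gene was called, so the counts that follow tell direction only. Of 9 B cell genes, 5 fell in M-EPCs relative to F-EPCs and 5 relative to OVX-EPCs, with Ebf1 at log2 differences of -3.85 (SE 0.34) and -4.51 (SE 0.43) and Pax5 at -2.39 (0.32) and -3.20 (0.26). The summed level of the 5 B cell genes read in all libraries was 181 to 216 in M-EPCs, 343 to 426 in F-EPCs and 691 to 793 in OVX-EPCs on the joined scale. Cd79b held most of this sum in M-EPCs, and with recomputed size factors it turned direction between F-EPCs and OVX-EPCs (0.065 to 0.071) and lost its call between M-EPCs and OVX-EPCs with RLE and DESeq2 (-0.84). Among 8 T cell genes, 3 fell relative to F-EPCs and 6 relative to OVX-EPCs, Cd3e by 3.28 (SE 0.29) and 3.76 (SE 0.34) on the log2 scale. Progenitor genes, with Kit among them, fell for 4 of 9 in both comparisons, and their summed level was 43.0 to 53.0 in M-EPCs, 396 to 455 in F-EPCs and 587 to 642 in OVX-EPCs. No progenitor gene was listed between F-EPCs and OVX-EPCs, and the step between these groups is likewise smaller than that shift. Among 15 macrophage genes, Marco, C1qa and Apoe rose in M-EPCs relative to F-EPCs, and Marco relative to OVX-EPCs. With RLE or DESeq2, C1qa (0.85) and Apoe (0.82) were not called between M-EPCs and F-EPCs. For the endothelial list, 4 of 10 genes were in a table, and M-EPCs had less Vwf, Kdr and Tie1 than either female group and more Pecam1, which encodes CD31, than F-EPCs (1.62, SE 0.09). Cdh5, Tek, Emcn, Eng, Cldn5 and Egfl7 were not in the tables and were not used here. The part of these other cell types in the levels of the dendritic cell genes was not tested.

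Each of the 6 genes read in all 9 libraries was compared with the other 1287 such genes by Pearson's r of log2(level + 1). The nearest were Mmp12 (0.991), Add3 (0.989) and Emp1 (0.988) for Ccr7, Idi1 (0.994), Sqle (0.993) and Scd2 (0.992) for Ccl22, and Dnmt3aos (0.985), Ticrr (0.984) and Rhov (0.983) for Fscn1. Siglech was nearest to Pitpnm2 (0.994), Clec1b (0.993) and Tnik (0.992), Ccr9 to Arhgef17 (0.978), Des (0.971) and Mlph (0.968), and Flt3 to Serpinb1a (0.966), Gm15915 (0.966) and Dnmt3aos (0.959). None of these genes is in the 11 marker lists. The 9 points fall into 3 groups that share their libraries and size factors, and the genes were all selected for a difference between groups, so high values are common and these are descriptions.

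Xist, transcribed from the inactive X, had 0 to 6 reads in M-EPC libraries and 40935 to 50237 in the female groups, and Ddx3y, Kdm5d, Uty and Eif2s3y on the Y had 0 reads in every F-EPC and OVX-EPC library and 821 to 2155 in M-EPC libraries, as labelled. Reads on listed genes lay between 1602317 and 2070442 per library for M-EPCs and F-EPCs. Total depth is unknown, as unlisted genes were not analysed here.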

How the data were processed

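RNA from 9 libraries (M-EPC, F-EPC and OVX-EPC, 3 each, grouped by their labels) was analysed. Per the labels and the study's methods, the authors mapped reads with HISAT2 to mm10, quantified with Cuffquant and Cuffnorm and compared groups with DESeq (versions not given in the sources used here). The deposited signal is a normalized count, reads divided by a size factor set per library and comparison, for genes that met the fold change and FDR criteria of the authors. Whole reads were recovered for 100% of values (tolerance 0.01 reads). The authors' own log2 fold changes, p-values and adjusted p-values were not used.

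Limma 3.58.1 (R 4.3.3) was fitted to log2(normalized count + 1) of the 6 libraries of each comparison, over all listed genes, keeping genes whose mean reached 1 in a group, with no covariate. A gene was called at a Benjamini-Hochberg adjusted p under 0.05 and an absolute log2 difference of at least 1. The edgeR quasi-likelihood test had been set for raw counts and served as an alternative here, as did DESeq2. Exact permutation of 3 libraries against 3 was not run, since it cannot pass 0.05. For levels on 1 scale the size factors of the 3 tables were chained through the M-EPC libraries. The labels do not say whether replicate numbers pair libraries, and no pairing was used in this fit (see the closing section). The fit was tested on simulated data.

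The members and marker lists were chosen with earlier results of these data known. Genes named were the 7 members, genes of the 6 dendritic cell lists present in all 3 tables or among the 3 largest differences of their list in a table, up to 3 per table of each other list, the 3 genes most like each member, and sex-linked genes as a check of the labels. Kit, Cd86, Cd274, Itgax, Atp1b1, Lag3 and Tlr9, and genes named as outside the tables, were named after their values or absence had been seen. Positions and exonic lengths came from GENCODE, promoters from RefSeq. A gene of the B cell list is not reported here.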

Additional observations from a re-analysis of the deposited data

How the results depend on the processing

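With the authors' size factors, another pseudocount (0.1), no filter, edgeR on recovered reads and a replicate block left every listed member called, as did a mean of at least 10 for those it kept (Flt3 against OVX-EPCs was removed). The pseudocount of 0.1 enlarged log2 differences of genes near 0 reads in M-EPCs, up to -8.60 for Ccr7 against F-EPCs. Recomputed size factors came with a change of test to edgeR or DESeq2, which also moved differences of genes near 0 reads (Ccr7 against F-EPCs to -7.57 with TMM). They assume that most genes are unchanged, which genes selected for a difference need not meet, so they cannot settle which scaling is right. Between F-EPCs and OVX-EPCs they left 2 of 4 members and 7 of 15 other list genes called with TMM, RLE and DESeq2, Siglech at -0.74, -0.75 and -0.75, and Ccr9 reversed at 0.047, 0.040 and 0.041. Against OVX-EPCs, Ccr9 in M-EPCs was at -0.95, -0.53 and -0.53, not called, with medians shifted by 0.20, 0.63 and 0.63. Against F-EPCs, Batf3 was at 0.74 with RLE and DESeq2, not called. Leaving out each library kept the number of called members at 5 to 6, 6 to 6 and 4 to 4, and Batf3 lost its call without F-EPC library 1 (0.90). Size factors were also taken from those of the 1288 genes with values in all libraries that had at least 1 read in each. Mean levels then moved to 96.3 (Ccl22), 143 (Fscn1) and 72.1 (Ccr9) in F-EPCs and 76.8 (Fscn1), 69.0 (Siglech) and 116 (Ccr9) in OVX-EPCs. The other 34 level values, of these factors and of the chain through F-EPC libraries, moved by less than 1 SD. Correlations of same-numbered libraries lay between -0.019 and 0.032. They show no pairing by replicate number but, taken over selected genes, cannot exclude it. With the replicate block 6, 6 and 4 members were called. Depth limits Ccr7, Ccl22, Siglech and Flt3 in M-EPCs, at 4 reads or fewer per library.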
